A study of Mus musculus with 12 samples.

Results

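Receptor tyrosine kinases are membrane proteins that bind a growth factor or a matrix or membrane ligand outside the cell and pass the signal on through a kinase domain inside it. The genes described here are 45 receptor tyrosine kinase genes of the mouse, taken as a fixed list from the 21729 genes of the table. Among them are Kit, the receptor by which the cells had been sorted, and the receptors for factors in the culture medium. Messenger RNA was read in 12 single cultured cardiac progenitor cells (CPCs), which form 1 group. Hearts of 12-week-old female FVB mice gave c-Kit+ cells depleted of blood lineages. In the study hearts were pooled before plating, and adherent cells were passaged 5 times on gelatin. The medium held 10% fetal serum, insulin with transferrin and selenium, leukaemia inhibitory factor and basic FGF at 10 ng/ml each, and EGF at 20 ng/ml, with the supplements B27 at 2% and N2 at 1%. The cells of a dish share animals and culture, and the labels name neither, so the group counts as 1 sample. No test was made across cells, no fresh cells are analysed here, and the spreads below describe these 12 libraries.

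Total counts ran from 3453708 in cell 1 to 5690184 in cell 12, and 10022 to 11950 genes were detected per cell. Levels are given as CPM, counts per 1000000 counts of the cell. A gene at 0 counts could lie at up to 0.527 CPM in the deepest library and 0.869 CPM in the shallowest, the value of 3 counts there. Molecular identifiers were not used in these libraries, so such limits, like the intervals given later, describe counting error and nothing else. Cells 10, 3, 11 and 12 stood apart by some marker genes, though not by all of a list. Cell 10 held 11646 CPM summed over 10 endothelial markers (no receptor among them), and the other cells at most 414 CPM. Of those markers Cldn5 and Vwf were at 0 in each cell. Cell 3 had the next highest endothelial sum, of which Eng, at 60.9 CPM or more in each cell, gave 349 CPM. Of 10 fibroblast markers, Mgp and Dcn were at 2868 and 223 CPM there, against at most 121 and 12.4 CPM elsewhere. Fbln2 was lowest in cell 3, at 1315 CPM, and the fibroblast sum there, 4677 CPM, was under the median of 5077 CPM. In cell 11 the smooth muscle actin gene Acta2 was at 3668 CPM, and 117 CPM was its highest value elsewhere. Acta2 gave nearly all of the sum of 10 mural markers there, 3679 CPM. Tagln was at 11.2 CPM, and Myh11, Rgs5, Des, Cnn1, Kcnj8 and Abcc9 were at 0 in that cell. Cell 12 had the highest fibroblast marker sum, 15776 CPM, against 7765 CPM in the next cell. Fbln2, Col1a2 and Col1a1 were highest in cell 12, while Lum and Postn were at 0 there. Although the mice were labelled female, the Y-linked genes Ddx3y and Eif2s3y had counts in 12 of 12 cells. The sum of 4 Y-linked genes was lowest in cell 3 at 9.76 CPM, with Uty and Kdm5d at 0 there, and the other cells held 63.7 CPM or more. The label c-Kit+ describes the sort and not the transcripts after culture, since Kit was at 0 counts in 11 cells. Mast cells, blood-derived cells that carry Kit, left little trace, because their 6 markers summed to at most 0.796 CPM.

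Stem cell factor, the product of Kitl, is the ligand of Kit, and the PDGF receptors Pdgfra and Pdgfrb are its close relatives, typical of stromal and mural cells. Kdr, Flt1, Flt4, Tek and Tie1 are the receptor kinases of the VEGF and angiopoietin systems and are known for their place in endothelium. Axl, Mertk and Tyro3 form the TAM family, which binds Gas6 and protein S on the membranes of dying cells. Ddr1 and Ddr2 bind collagen, the Eph receptors bind ephrins on neighbouring cells, and Ror1, Ror2, Ryk and Ptk7 take part in Wnt signalling.

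Pdgfra, Kit and Kdr lie next to each other on chromosome 5, in that order. Pdgfra spans 75152292 to 75198215, Kit 75574916 to 75656722 and Kdr 75932827 to 75978458 (mm10, GENCODE vM21). The gaps were 376.7 kb and 276.1 kb, with 0 other genes of the table inside them. Along this stretch Pdgfra was counted in 12 cells, whereas Kit and Kdr were counted in cell 10 and in no other cell. The promoters of these neighbours are shown because their counts differed so widely, with Flt1 and Tek, a pair of endothelial receptors that were highest in cell 10. They are the 250 bases before the RefSeq start site (GRCm38.p6), from 5′ to 3′ on the strand of the gene, shortened for Kit and Kdr to the bases that also precede the GENCODE gene. Capitals mark AGGAAG or CGGAAG, letters typical of ETS factor sites, on either strand.
Pdgfra (chr5:75152001-75152250, plus strand): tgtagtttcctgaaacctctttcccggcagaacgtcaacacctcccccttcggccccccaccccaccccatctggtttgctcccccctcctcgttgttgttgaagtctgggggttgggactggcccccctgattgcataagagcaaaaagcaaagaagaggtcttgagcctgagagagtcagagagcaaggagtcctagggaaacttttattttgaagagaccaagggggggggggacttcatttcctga
Kit (chr5:75574737-75574915, plus strand): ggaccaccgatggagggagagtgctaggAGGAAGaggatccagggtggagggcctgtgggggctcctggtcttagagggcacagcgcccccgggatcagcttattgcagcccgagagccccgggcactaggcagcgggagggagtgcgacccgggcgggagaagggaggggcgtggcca
Kdr (chr5:75978459-75978705, minus strand): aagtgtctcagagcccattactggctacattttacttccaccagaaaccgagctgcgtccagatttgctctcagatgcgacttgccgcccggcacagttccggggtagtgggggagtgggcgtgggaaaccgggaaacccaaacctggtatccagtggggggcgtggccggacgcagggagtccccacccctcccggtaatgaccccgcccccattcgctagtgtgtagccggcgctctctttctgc
Flt1 (chr5:147726012-147726261, minus strand): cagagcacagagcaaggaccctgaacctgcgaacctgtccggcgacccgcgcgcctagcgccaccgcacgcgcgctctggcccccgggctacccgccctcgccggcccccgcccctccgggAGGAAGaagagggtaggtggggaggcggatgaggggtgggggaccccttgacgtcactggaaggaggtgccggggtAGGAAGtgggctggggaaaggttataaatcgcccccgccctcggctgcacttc
Tek (chr4:94739039-94739288, plus strand): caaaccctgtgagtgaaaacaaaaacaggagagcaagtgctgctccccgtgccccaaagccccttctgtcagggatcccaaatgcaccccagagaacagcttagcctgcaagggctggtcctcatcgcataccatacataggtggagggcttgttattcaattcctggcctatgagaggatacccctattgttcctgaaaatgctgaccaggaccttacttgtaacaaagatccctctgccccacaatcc
Such letters stood 1 time in the Kit window, 2 times in the Flt1 window and 0 times in the windows of Pdgfra, Kdr and Tek. Among the 39 members with a window, 11 had them, and of all 32851 windows of this length 39.2% did. Over the full 250 bases the GC content was 54.4% for Pdgfra, 70.8% for Kit, 61.6% for Kdr, 70.4% for Flt1 and 51.2% for Tek, with a median of 52.4% over all windows. A match in letters is a description and shows no binding.

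Of the 45 receptor genes, 36 had a count in at least 1 cell (80.0%), against 66.6% of all genes. In 12 of 12 cells 14 members were counted (31.1%), against 35.3% of all genes, and 15 members had a median of at least 10 CPM (33.3%), against 36.3%. A level of 10 CPM was reached in any cell by 29 members (64.4%), against 49.2% of all genes. Taken value by value, 54.1% of the 540 member values were above 0 (292 values, with an SD of 7.24 percentage points over cells), and 50.5% of the values of all genes were. The number of members counted in a cell had a median of 25.5 and ran from 18 in cell 11 to 28 in cell 1. With each cell reduced to the total of cell 1, the expected numbers ran from 18.0 to 28.0. The summed level of the members was lowest in cell 2 at 1078 CPM, had a median of 1613 CPM and was highest in cell 10 at 2543 CPM. Cell 8 followed with 2155 CPM, mostly from Axl.

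At 0 counts in each of the 12 cells were 9 members (20.0%, against 33.4% of all genes). These were Erbb3 and Erbb4, receptors of neuregulins, Flt3 of early blood cells, Epha3, Epha5 and Ephb2, the neurotrophin receptor Ntrk2, and the related kinases Alk and Ltk. A further 4 members were counted in 1 cell, namely Kit, Kdr and Tek in cell 10 and Ntrk3 in cell 2 with 0.247 CPM (8.89% of members, against 6.05% of all genes).

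To compare genes with each other, CPM was divided by the length of the merged exons in kb. By this measure Axl was the highest member in 12 of 12 cells, with a lowest value of 57.4, a median of 95.3 and a highest of 249 CPM per kb. The level of Axl exceeded that of 97.1% of the genes with a known length. Ryk, an atypical receptor that binds Wnt proteins, followed with a median of 25.5 CPM per kb and a highest value of 39.6, so the ranges of Axl and Ryk did not overlap. Next came Ddr2 with a median of 18.0, Fgfr1 with 17.0, Ddr1 with 8.83, Pdgfra with 7.29, Met with 5.14, Pdgfrb with 4.77, Ephb4 with 4.49 and Epha2 with 4.05 CPM per kb. Of the 25 neighbouring pairs in the order of the 26 members with a median above 0, 24 overlapped in their ranges over cells; the pair of Axl and Ryk was the exception. Ryk exceeded Ddr2 in 7 of 12 cells and Ddr2 exceeded Fgfr1 in 6 of 12, so these neighbours could not be ordered. The 5 highest members held a median of 77.2% of the summed level per kb, with a range of 37.2% in cell 10 to 84.8% in cell 8.

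**Figure D1:**
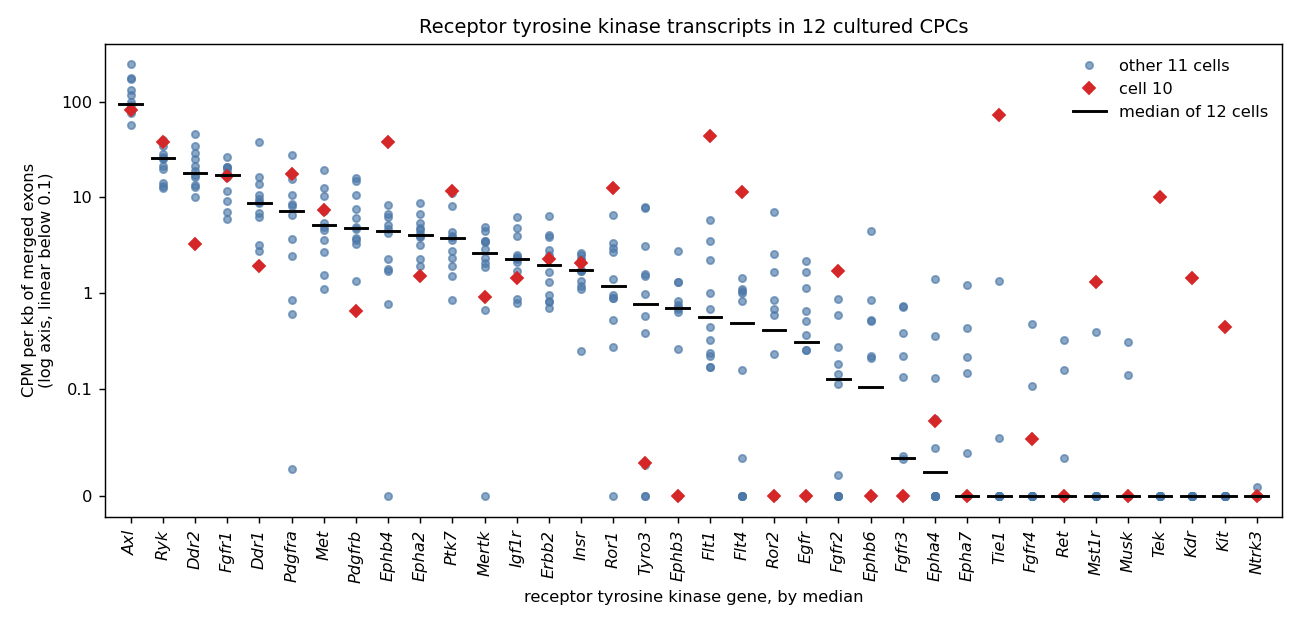
Level of the 36 receptor tyrosine kinase genes with a count, in CPM per kb of merged exons on an axis that is logarithmic above 0.1. Each blue point is 1 of 11 cells, the red diamond is cell 10 and the bar is the median of 12 cells. Axl lies highest at a median of 95.3, and Tie1, Flt1 and Ephb4 reach 71.8, 44.4 and 37.7 in cell 10.

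The receptors for the growth factors of the medium differed widely in level. For EGF, Egfr had a lowest value of 0, a median of 3.55 and a highest of 24.7 CPM. Egfr had no counts in cells 7, 8, 10 and 12, and it passed 10 CPM in cells 1, 9 and 11. All 4 cells without Egfr counts were among the 5 with the fewest detected genes (10022 to 10181). The same 5 cells had the highest total counts. The part of the number of detected genes or of depth in this was not tested. Erbb2, which has no ligand of its own and pairs with other members of the family, was counted in 12 cells, from 3.69 to 33.5 CPM with a median of 10.3 CPM. Cell 9 was the highest for both Egfr and Erbb2. With Erbb3 and Erbb4 at 0, the family consisted of Egfr and Erbb2 at the depth of these libraries.

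For FGF, Fgfr1 carried nearly all of the counts. Fgfr1 ran from 58.6 CPM in cell 7 over a median of 168 CPM to 259 CPM in cell 5. Fgfr2 was counted in 8 cells, with a median of 1.32 CPM and a highest value of 17.8 CPM in cell 10. Fgfr3 reached 5.24 CPM and Fgfr4 1.68 CPM, both in cell 9. Of the Fgfr3 exons 13.9% of the length also belongs to a gene on the opposite strand, and of the Fgfr2 exons 3.04% to Ctbp2. Per kb, the median of Fgfr1 was 17.0 and that of Fgfr2 0.128. For insulin, Insr and the related Igf1r were both counted in 12 cells. Insr was lowest in cell 8 with 3.45 CPM, had a median of 23.8 CPM and was highest in cell 7 with 36.5 CPM. Igf1r was lowest in cell 3 with 13.2 CPM, had a median of 38.6 CPM and was highest in cell 5 with 104 CPM. Per kb, the medians of Igf1r and Insr were 2.30 and 1.73, and their ranges overlapped.

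Kit had 21 counts in cell 10 (exact 95% Poisson interval 13.0 to 32.1), or 3.94 CPM. This was 4.54 times the limit of 3 counts in the shallowest of the other libraries. The interval of the 21 counts is not part of that ratio. Whether 11 cells lacked the transcript or held it under that limit was not detectable at this depth. Of the other members of its class, Flt3 was at 0 and both PDGF receptors were counted in 12 cells. Pdgfra had a single count in cell 2, 6.09 CPM in cell 7 and 8.48 CPM in cell 11, and its median was 73.1 CPM. The highest cells for Pdgfra were cell 3 with 276 CPM and cell 10 with 175 CPM. Pdgfrb ran from 3.57 CPM in cell 10 over a median of 26.1 CPM to 87.5 CPM in cell 12. In cell 10 Pdgfra was thus second highest among the cells and Pdgfrb lowest. Part of the Pdgfra exons (6.50% of their length) also belongs to annotated genes on the opposite strand or to a microRNA, and a strand rule for the counting is not stated.

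Among the TAM receptors, Axl ran from 289 CPM in cell 1 over 479 CPM to 1253 CPM in cell 8, and cell 9 followed with 886 CPM. Mertk, which takes part in the uptake of dying cells, ran from 0 in cell 12 to 21.5 CPM in cell 2, with a median of 11.4 CPM. Tyro3 had a median of 4.81 CPM, was at 49.5 CPM in cell 1 and 48.5 CPM in cell 8, and had at most 1 count in cells 7, 10, 11 and 12. The levels of Axl and Tyro3 were thus both high in cell 8, and in cell 1 Axl was lowest and Tyro3 highest. Axl and Ryk moved with library depth, with Spearman's rho of 0.73 and 0.71 between CPM and total counts over 12 cells. With the number of detected genes their rho was -0.58 and -0.61. Cells 7, 8, 10, 11 and 12 had both the highest totals and the fewest detected genes, so these could not be told apart. The part of either in the levels of Axl and Ryk was not tested. Of all genes counted in 12 cells 2.07% had an absolute rho of 0.7 or more with the total.

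Of the collagen receptors, Ddr2 ran from 30.4 CPM in cell 10 over 167 CPM to 431 CPM in cell 12. Ddr1 ran from 9.20 CPM in cell 10 over 42.1 CPM to 183 CPM in cell 7. Cell 10 was thus the lowest for both. It was also the lowest for the 3 fibrillar collagen genes listed as ligands, Col1a1, Col1a2 and Col3a1, which summed to 12.2 CPM. Other collagens were not listed. The median of that collagen sum was 1139 CPM and the highest 6118 CPM, in cell 12. Met, the receptor of hepatocyte growth factor, ran from 8.44 CPM in cell 3 over 39.5 CPM to 148 CPM in cell 5. Mst1r, its relative, was counted in cells 10 and 2, at 6.57 and 1.98 CPM.

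In the Eph family, Epha2 and Ephb4 were the main members. Epha2 ran from 7.13 CPM in cell 10 over 18.9 CPM to 41.0 CPM in cell 11. Ephb4, a receptor known from veins, ran from 0 in cell 3 over 20.9 CPM to 175 CPM in cell 10, where it was 4.56 times the next cell. Ephb3 had a median of 4.64 CPM and reached 18.5 CPM in cell 12. The medians of Epha4, Epha7 and Ephb6 were at most 0.396 CPM, and their highest values were 11.3 CPM in cell 4, 12.2 CPM in cell 7 and 17.0 CPM in cell 6. Among the Wnt-binding receptors and their relatives, Ryk was the highest per kb, and it ran from 57.0 to 180 CPM with a median of 116 CPM. Ptk7 ran from 4.58 CPM in cell 5 over 20.1 CPM to 62.3 CPM in cell 10, close to cell 11 with 59.7 CPM. Ror1 ran from 0 in cell 12 over 6.82 CPM to 72.5 CPM in cell 10, and Ror2 from 0 over 1.77 CPM to 29.7 CPM in cell 12. Ror1 and Ror2 were thus at opposite ends in cells 10 and 12. Ret, the receptor of the GDNF family, was counted in 3 cells at up to 2.19 CPM, and Musk, of the muscle synapse, in 2 cells at up to 1.16 CPM.

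The endothelial receptors were highest in cell 10. Flt1 was at 599 CPM in cell 10 (3190 counts, exact 95% Poisson interval 3080 to 3303), and the other cells ran from 2.31 over a median of 5.99 to 78.8 CPM in cell 5. Cell 10 thus stood 7.60-fold above the next cell. Tie1, an orphan partner of Tek, was at 353 CPM in cell 10 (1880 counts) and at 6.66 CPM in cell 7, the next, which is 53.0-fold lower. Flt4, the VEGF-C receptor, reached 94.6 CPM in cell 10, while 12.0 CPM was its highest value elsewhere, and 7 of the other 11 cells had counts. Tek, the angiopoietin receptor, had 254 counts (47.7 CPM) in cell 10 and none elsewhere, which is 54.9 times the limit of 3 counts. Kdr, the main VEGF-A receptor, had 70 counts (13.1 CPM) in cell 10 and none elsewhere, 15.1 times that limit. The 5 genes summed to 1107 CPM in cell 10, while 85.6 CPM was the highest sum elsewhere. Cell 10 was also the highest for the 10 endothelial markers. Among the other cells the order was not the same. Cell 3, with the next marker sum of 414 CPM, had 15.0 CPM of the receptors. Cell 5, with 85.6 CPM of the receptors, had 128 CPM of the markers. Eng gave 349 CPM of the marker sum in cell 3. Outside cell 10 no marker but Eng passed 37.6 CPM, so the marker order there mostly follows Eng. In cell 5, which had the second highest receptor sum, Flt1 gave 396 of the 430 counts.

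**Figure D2:**
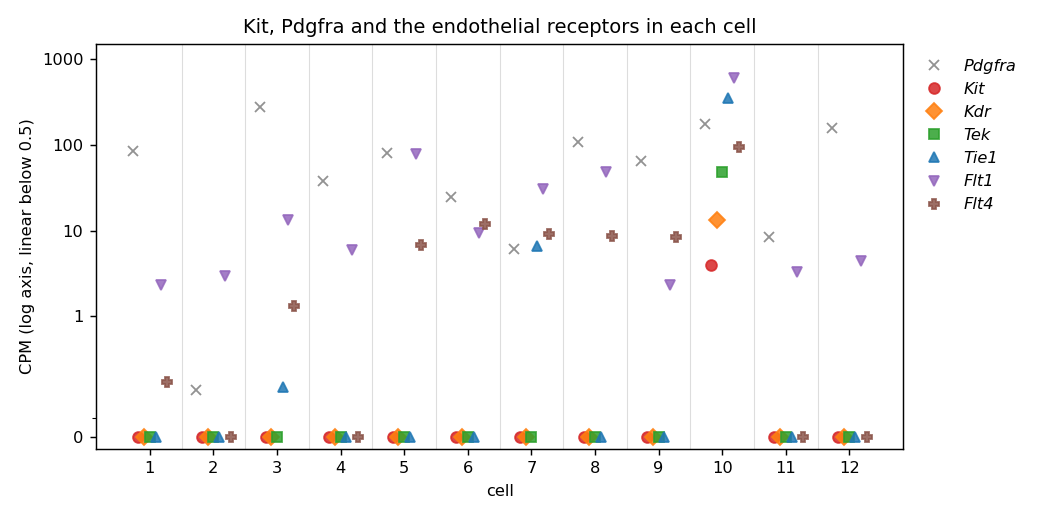
CPM of Kit, Pdgfra and the 5 endothelial receptors in each of the 12 cells, on an axis that is logarithmic above 0.5; each symbol is 1 gene in 1 cell. Kit, Kdr and Tek leave 0 in cell 10 and in no other cell, at 3.94, 13.1 and 47.7 CPM, and Pdgfra lies between 0.247 and 276 CPM.

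Cell 10 was the highest cell for 11 of the 36 detected members (30.6%), and for 11.6% of all detected genes. Besides Kit and the 5 endothelial receptors these were Fgfr2, Mst1r, Ephb4, Ror1 and Ptk7. Of the 36 members 3 were detected through cell 10 alone, so they had to be highest there. With a next cell at 0 set to the limit of 3 counts, 3 members lay in cell 10 at over 10 times the next cell (8.33%), against 0.961% of detected genes. These were Kdr, Tek and Tie1. Kdr and Tek were detected through cell 10 alone, so of these only Tie1 was also counted elsewhere. Of the other cells that stood apart, cell 3 was the highest for Pdgfra and for no other member (2.78%, against 7.63% of detected genes). Cell 11 was the highest for Epha2 and for no other member (2.78%, against 6.69%). Cell 12 was the highest for 4 of the 36 members, Pdgfrb, Ddr2, Ephb3 and Ror2, and for 7.42% of detected genes. Without cell 10, 33 members had a count in at least 1 cell, and 33 had one without cells 3 and 10.

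Variation between cells was measured as log10 of the squared coefficient of variation, minus the running median of genes of like mean. Genes entered with a mean of 5 CPM or more and counts in 3 cells or more, which 22 of the 45 members and 9701 genes met. Above the 90th percentile of these genes, by construction 10% of them, lay 7 members: Tie1, Flt1, Flt4, Ephb4, Pdgfra, Tyro3 and Ror1. Tie1 and Flt4 met the mean through cell 10 alone and were not measured without it. Without cell 10 there were 6 of 21 that met the mean, namely Pdgfra, Met, Tyro3, Ddr1, Flt1 and Ror2, and Ephb4 and Ror1 were no longer among them. Ror2 met the mean in that setting and not with all cells. Without cell 11 there were 9. Pdgfra, Tyro3 and Flt1 were above the limit with all cells, without cell 10 and without cells 3 and 10. At the other end, Insr varied less than most genes of its level, with a residual of -0.40 at percentile 7.48. Fgfr1 and Ryk were near the running median, with residuals of 0.01 and -0.09.

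**Figure D3:**
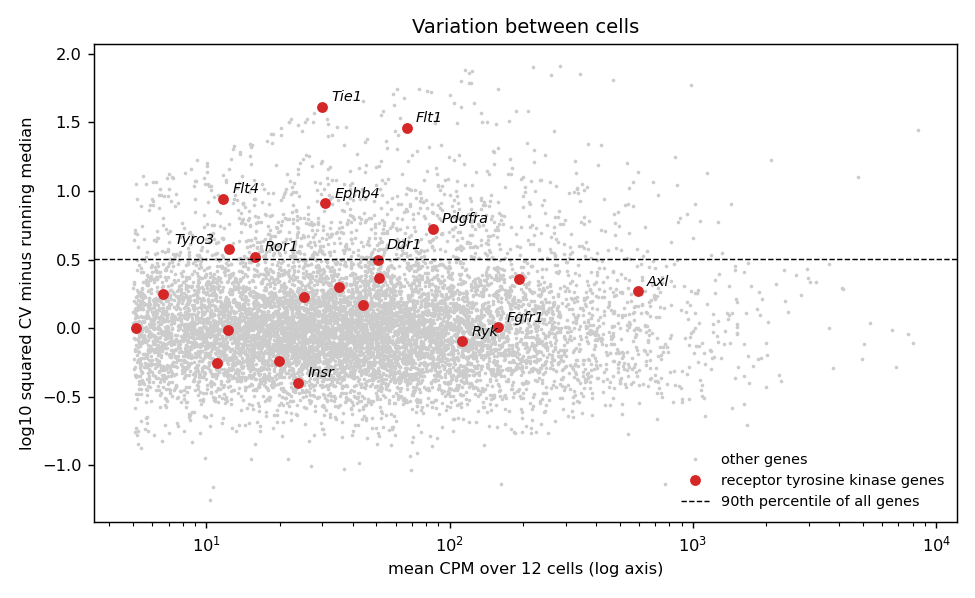
Variation between cells for 9701 genes, as log10 of the squared coefficient of variation minus the running median, against mean CPM on a log axis. Grey points are other genes, red points the 22 receptor genes and the dashed line the 90th percentile, 0.51. Of the receptor genes, Tie1 at 1.62 and Flt1 at 1.46 lie highest above the line, both with their highest value in cell 10.

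How the receptors moved with each other was read from 14 members with counts in 12 cells, as Spearman's rho of log2(CPM + 1). These are descriptions over 12 libraries of 1 group, with differing depth. The median of the 91 pairs was 0.05, against 0.02 over all pairs of the 7680 genes counted in 12 cells, and an absolute rho of 0.7 or more was found for 2 pairs (2.20%), against 1.90%. The highest was Pdgfrb with Ddr1 at 0.76, which was 0.68 without cell 10, where Ddr1 with Ptk7 was highest at 0.82, up from 0.40. The lowest was Pdgfra with Igf1r at -0.73, which was -0.66 without cell 10 and -0.55 without cells 3 and 10, where Met with Epha2 was lowest at -0.77. With the summed level of 12 G2/M genes, Ptk7 had a rho of -0.71, and with 12 S phase genes Fgfr1 had the highest value of the members, 0.68. Among the 7680 genes 5.74% had an absolute rho of 0.7 or more with the G2/M genes, so 1 of 14 members is close to that share.

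The ligands of these receptors were read in the same cells. Of 66 ligand genes 53 had a count in at least 1 cell, 18 in each cell, and 21 had a median of at least 10 CPM (the shares over all genes were 66.6%, 35.3% and 36.3%). Kitl was counted in 12 cells, from 64.6 CPM in cell 10 over 185 CPM to 751 CPM in cell 5. The cell with Kit counts was thus the lowest for the ligand of Kit. Pdgfa, a ligand of Pdgfra, ran from 46.6 over 92.1 to 119 CPM, and Pdgfra and Pdgfa were both at 10 CPM or more in 9 cells. Pdgfd, a ligand of Pdgfrb, had a median of 68.5 CPM, while Pdgfb was at 0 in 12 of 12 cells. Gas6 and Pros1, the ligands of the TAM receptors, had medians of 55.3 and 126 CPM, and Axl and Gas6 were both at 10 CPM or more in 12 cells. Pros1 was highest in cell 10, at 323 CPM.

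Of the 11 EGF family ligands 8 were detected, and Hbegf and Ereg were counted in 12 cells. Hbegf ran from 47.4 over 200.8 to 1143 CPM in cell 12, and Ereg from 45.6 over 211 to 319 CPM in cell 11. Per kb the medians of Ereg and Hbegf were 51.1 and 41.5, and that of Egfr 0.313, with ranges that did not overlap. Btc had a median of 10.0 CPM and Egf was at 0 in each cell. Of the FGFs, Fgf7 and Fgf10, which act mainly on epithelial forms of Fgfr2, had medians of 209 and 64.1 CPM, and both were at 0 in cell 10. Fgf2, the factor added to the medium, ran from 3.76 CPM in cell 10 over 57.1 CPM to 490 CPM in cell 5, and Fgfr1 and Fgf2 were both at 10 CPM or more in 11 cells. Bdnf, the ligand of Ntrk2, ran from 26.3 CPM in cell 10 over 260 to 524 CPM in cell 11, with its receptor at 0 counts. Gdnf had a median of 1.62 CPM.

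Hgf, the ligand of Met, was counted in 2 cells at up to 11.8 CPM. Vegfa ran from 16.3 CPM in cell 10 over 118 CPM to 552 CPM in cell 12, and Vegfb from 12.5 over 33.8 to 101 CPM. Vegfd had a median of 30.2 CPM. Of the angiopoietins, Angpt1, an agonist of Tek, was at most 2.52 CPM. Angpt2 was counted in 9 cells and was highest in cell 10 at 24.8 CPM, and Angpt4 reached 14.2 CPM in cell 3. Among the ephrins, Efnb2, the partner of Ephb4, ran from 30.1 over 59.3 to 127 CPM, and Efna5 and Efnb1 had medians of 23.9 and 9.83 CPM. Efna1, a ligand of Epha2, reached 578 CPM in cell 10, while 0.210 CPM was its highest value elsewhere. Cell 10 was thus highest for Efna1 and lowest for Epha2. Igf1 was at 213 CPM in cell 10, had a median of 1.76 CPM and was counted in 7 cells, while Igf2 was counted in cell 10 alone, at 4.13 CPM, and Ins1 and Ins2 were at 0. Wnt5a, a ligand of Ror2 and Ryk, had a median of 7.42 CPM, and Agrn, the ligand of the Musk complex, one of 9.47 CPM. Of the 4 ligands of Alk and Ltk, Ptn was highest, at up to 3.61 CPM.

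**Figure D4:**
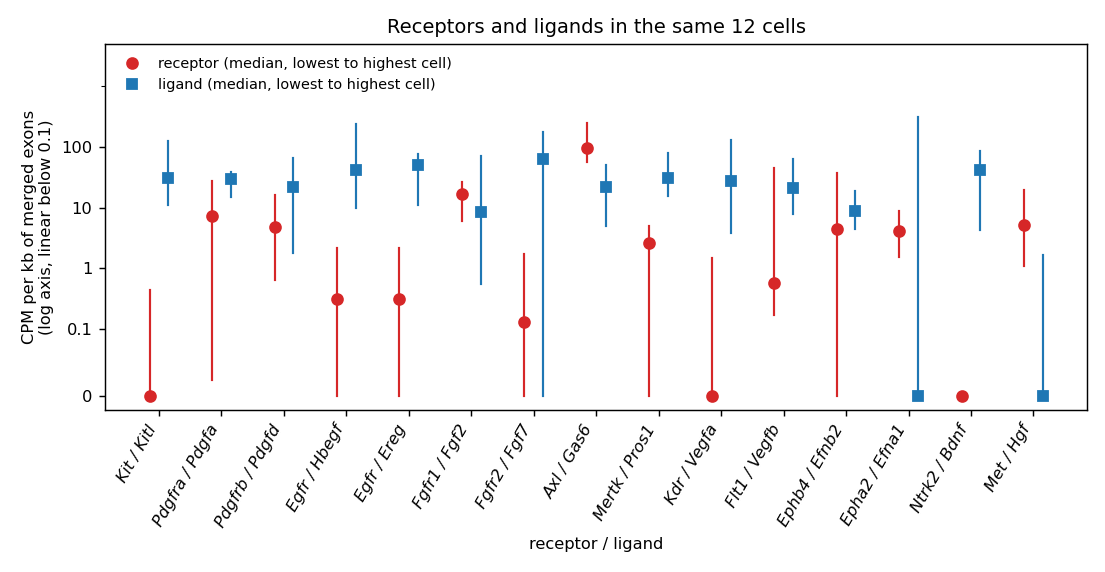
Receptors (red circles) and a ligand of each (blue squares) in the same 12 cells, in CPM per kb of merged exons on an axis that is logarithmic above 0.1; symbols are medians and lines run from the lowest to the highest cell. Kitl and Bdnf have medians of 31.3 and 41.9 where Kit and Ntrk2 are at 0, and Axl is the receptor with the highest median, 95.3.

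Genes that act beside and below the receptors were counted as well. Of 10 coreceptors 7 were detected and 3 had a median of at least 10 CPM. Fgfrl1, an FGF receptor without a kinase domain, had a median of 51.9 CPM. Nrp1 and Nrp2, which bind VEGF and semaphorins, had medians of 20.9 and 22.8 CPM and were highest in cell 10, at 236 and 153 CPM. Of 20 adaptor and effector genes 19 were detected and 13 had a median of at least 10 CPM, where the shares over all genes were 66.6% and 36.3%. The highest per kb were Crk, Grb2 and Ptpn11, with medians of 127, 75.7 and 129 CPM and counts in 12 cells. Of 17 negative regulators, read against those shares, 17 were detected and 13 had a median of at least 10 CPM. Dusp5 and Dusp4, phosphatases of the MAP kinases, had medians of 176 and 96.5 CPM. Errfi1, an inhibitor of Egfr, had a median of 48.0 CPM and was lowest in cell 10, at 2.82 CPM.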

How the data were processed

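Single cultured CPCs were taken up by pipette, and libraries were made with the Smart-Seq v4 and Nextera XT kits. Paired reads were aligned by the authors with STAR 2.5.2b to mm10, with multiply mapped reads left out. What they deposited is a table of unnormalized counts for every gene in every cell; the counting program, annotation and strand rule are not given in the sources used here. Totals ran from 3453708 to 5690184 counts.

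CPM was computed from the deposited counts. Lengths and positions came from GENCODE vM21, on the build of mm10, for 98.3% of gene symbols; promoters came from RefSeq (GRCm38.p6). Alkal1 and Alkal2 were matched by older symbols, and Flt3l is not analysed here. Intervals were exact at a level of 0.95. Steps were tested on simulated data. The members, lists and alternatives were chosen with earlier results of these data known. The text names Kit, the receptors for EGF, FGF and insulin, the endothelial receptors and the 10 highest members per kb. Members above the 90th percentile of variation and members at 0 or in 1 cell are named too. Of each list of ligands, coreceptors, adaptors and negative regulators, up to 3 genes with the highest median per kb are named. Genes of these lists in cell 3 or 10 at over 10 times the next cell are also named, and marker genes fall outside this rule. Other members are given by range or highest value, and further list genes were named after their values were seen. Alternatives in scaling used TMM factors of edgeR 4.0.16 and size factors of DESeq2 1.42.0 in R 4.3.3. Other steps ran in Python 3.11.15 with pandas 2.3.3, numpy 2.4.6, scipy 1.17.1 and matplotlib 3.10.9.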

Additional observations from a re-analysis of the deposited data

How the results depend on the processing

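Of 44 alternatives other than leaving out 1 cell, over 11 results, 40 moved the value by less than its spread (1 SD over cells or pairs, the exact interval of a summed count, or a factor of 1.5 for a number of genes) and 4 by more. At 10 counts or more the median number of members per cell was 21.5, in place of 25.5. The share of member values with a count was 49.6% at 5 counts or more and 47.4% at 10 counts or more, in place of 54.1%, within 1 SD over cells; fewer values can pass a higher limit. The number of members above the limit of variation was 11 with no filter beyond a count in any cell and 4 at the 95th percentile, in place of 7. The endothelial receptors summed to 1247 CPM in cell 10 when scaled by the median of ratios, in place of 1107 CPM. With 1 cell at a time left out, 108 values were computed for 9 of the results, none of which moved past the spread. The Kit counts and the endothelial receptor sum are values of cell 10 itself and have no such value. Leaving out 1 of 12 cells moves a median or a count little against so wide a spread. That none moved was thus nearly set in advance and says little. The ranges were 33 to 36 members detected, 14 to 16 in each cell, and 6 to 9 above the limit of variation. The 10 highest members per kb stayed the same 10 with the longest transcript as length, and 8 of them were among the 10 highest with no length. No paired analysis was possible because there is 1 group. Depth limits what can be said of genes at few counts, and 12 cells with no culture or animal named limit the rest.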

Other observations

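Leukaemia inhibitory factor, also in the medium, signals through Lifr and Il6st, which are no tyrosine kinases. Il6st ran from 13.6 CPM over a median of 56.2 CPM to 120 CPM in cell 6. Lifr was counted in 12 cells with a median of 9.48 CPM, and cell 10 was highest with 80.4 CPM, the next being at 25.6 CPM. Socs3, an inhibitor that this pathway induces, had a median of 10.2 CPM and was counted in 11 cells.

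Csf1r, a receptor tyrosine kinase outside the list that binds the macrophage growth factor, was counted in 10 cells with a median of 5.19 CPM and was highest in cell 3, at 59.1 CPM. Epha1, also outside the list, was counted in 3 cells at up to 2.37 CPM. In cell 3 the 10 blood cell markers summed to 99.4 CPM, the highest of the 12 cells, with Cd68 at 69.1 CPM and Itgam, Tyrobp, Fcer1g and Laptm5 at 0 in each cell. In cell 10 Lrig1, an inhibitor of EGF receptors, was at 350 CPM against at most 44.6 CPM elsewhere, while Egfr had no counts there.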
